A study of Mus musculus with 15 samples.

Results

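The 10 genes described here, Fos, Fosb, Junb, Egr1, Egr2, Egr3, Egr4, Nr4a1, Npas4 and Btg2, are immediate early genes, and each was found by its symbol among the 33223 genes of the count tables. They were selected on an earlier look at the flow-through libraries of this series, in which Egr4 and Btg2 had moved in opposite directions in the KO. Values of that comparison are therefore given as a description with no test. The libraries were bulk RNA from the injured cortex of mice, collected 1 day after controlled cortical impact (CCI), in which a piston strikes the exposed brain. The WT group was EphA4f/f with no Cre named, and the KO group was EphA4f/f with VeCadCreERT2, a tamoxifen-inducible Cre under the VE-cadherin promoter, which acts in endothelial cells. All groups had the floxed allele and the injury, and no uninjured cortex and no undissociated tissue was analysed here. After dissociation, CD45 and CD31 microbeads split the cells. One set of libraries was made from the CD45 cells (microglia and leukocytes), with 3 WT and 4 KO libraries, and another from what ran through the beads (the other cortical cells, per the labels), with 4 WT and 3 KO. The sources used here do not give age, tamoxifen schedule, pooling or which animals stand behind the libraries.

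Immediate early genes are transcribed within minutes of a stimulus from factors already present in the cell, chiefly serum response factor with its ternary complex partners and CREB, which are activated by MAP kinase and calcium signals. Most encode transcription factors that switch on a later set of genes, and their mRNAs are short-lived. In the cortex they are known as markers of recently active neurons. Microglia and infiltrating leukocytes induce many of the same genes, and dissociation of tissue into single cells is known to raise them. Fos, Fosb and Junb encode subunits of AP-1. Egr1 to Egr4 encode zinc finger factors. Nr4a1 encodes an orphan nuclear receptor, Npas4 a factor that is largely restricted to neurons and driven by calcium entry, and Btg2 an antiproliferative protein that recruits the CCR4-NOT deadenylase.

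RefSeq promoter windows of GRCm38.p6, from 250 bases before to 50 bases after a transcription start, were matched by symbol for 8 of the 10 genes, Egr1 and Egr3 being the others. The CREB half-site TGACG, searched on both strands (its complement reads CGTCA), occurred in at least 1 window of each of these 8 genes and in 10 of their 12 windows. The same letters occurred in 20.8% of all 32851 windows. The full palindrome TGACGTCA, which contains the half-site on both strands, occurred in the window of Btg2, beginning 166 bases before the start, and in 1.79% of all windows. The CArG box, bound by serum response factor, was matched in the windows of Egr2 and in 1.63% of all windows. These are matches of letters, not measured binding sites. Stretches of 5 genes are shown. Egr4, Npas4 and Btg2 are those whose genotype values the text turns on, the site in Fos is well known, and the stretch of Egr2 also holds the CArG box. Each is read 5′ to 3′ on the strand of the gene, with the half-sites in capitals.
Fos, plus strand, chr12:85473799-85473853: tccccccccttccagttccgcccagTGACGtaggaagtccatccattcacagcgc
Egr2, plus strand, chr10:67537789-67537843: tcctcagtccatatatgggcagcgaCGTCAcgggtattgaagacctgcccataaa
Egr4, minus strand, chr6:85513669-85513723: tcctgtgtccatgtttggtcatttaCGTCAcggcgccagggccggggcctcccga
Npas4, minus strand, chr19:4990124-4990152: gaCGTCAcgggaTGACGtcggaagtctgg
Btg2, minus strand, chr1:134079289-134079343: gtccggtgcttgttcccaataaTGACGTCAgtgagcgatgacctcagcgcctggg
The Npas4 stretch lies within an annotated exon of a longer Npas4 transcript in GENCODE M21, and the other 4 stretches overlap no exon of their gene. The half-site shown lies 66 bases before the start in Fos, 55 in Egr2 and 109 in Egr4. Btg2 alone of the 8 genes holds the full palindrome, and all 8, Egr4 among them, hold a half-site. No link between these letters and the direction of the genotype values was tested.

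Levels are in CPM, the counts of a gene scaled by library size and TMM factor, on 1 scale for all libraries. Total counts were 19204814 to 27270907 per flow-through library and 11574414 to 31337948 per CD45 library. The 10 genes together took 0.167 to 0.246% of all counts in the flow-through and 0.399 to 0.58% in the CD45 libraries. The CD45 libraries had 955 to 1259 CPM of Ptprc, which encodes CD45, against 0.553 to 0.985 CPM in the flow-through. Epha4, the floxed gene, lay at 34.6, 34.8, 34.9 and 30.8 CPM in the WT and 32.1, 30.0 and 35.4 CPM in the KO flow-through libraries. It lay at 3.57, 3.25 and 3.30 CPM in the WT and 1.96, 4.06, 2.08 and 3.79 CPM in the KO CD45 libraries. The groups overlapped in each fraction, and since neither fraction is an endothelial isolate, these values do not check the deletion. A further library is labelled flow-through WT but its column is in the CD45 table and it had 1061 CPM of Ptprc. It was left out of every group.

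Per kilobase of exon, the unit in which genes can be compared with each other, Fos was the most abundant of the 10 in the WT flow-through, at 286 CPM per kb ± 21.6 (SD, n = 4), followed by Egr1 at 104 ± 7.69 and Junb at 83.6 ± 13.3. Btg2 (33.3 ± 1.53), Fosb (31.1 ± 3.93) and Nr4a1 (31 ± 5.2) came next, with ranges over libraries that overlapped, as did those of Egr1 and Junb. Egr2 (17.9 ± 1.62), Egr3 (3.76 ± 0.641), Npas4 (1.27 ± 0.435) and Egr4 (0.581 ± 0.155) were the lowest, each below the one before in every library. In the WT CD45 libraries the order was different at its top. Junb led at 704 CPM per kb ± 26.9 (SD, n = 3), followed by Fos (331 ± 73.8), Btg2 (264 ± 19.3), Nr4a1 (219 ± 22.8), Egr1 (164 ± 21.2) and Fosb (80.2 ± 15.3), and among these the ranges of Fos and Btg2 overlapped. Egr3 (14.8 ± 1.64) and Egr2 (13.1 ± 1.78) overlapped, and Npas4 (0.804 ± 0.382) and Egr4 (0.213 ± 0.0856) were again the lowest. Egr4 had 25 to 148 counts per flow-through library and 5 to 45 per CD45 library, so counting error is a larger part of its spread than for Fos, which had 8425 counts or more in every library used.

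**Figure D1:**
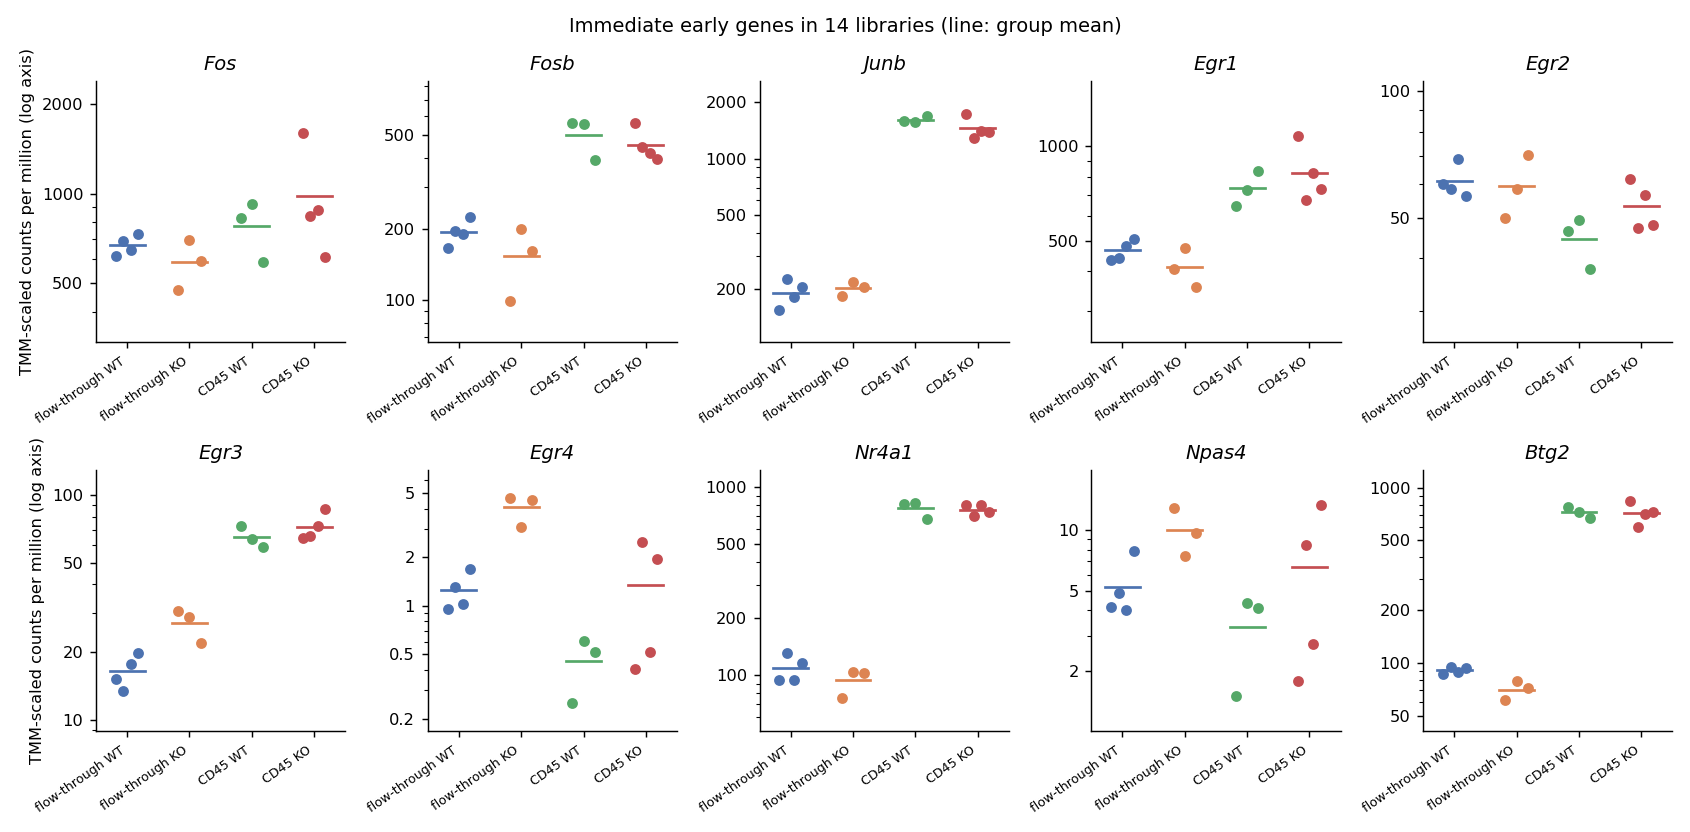
Level of each gene in every library, in TMM-scaled CPM on a log axis, by fraction and genotype. Points are libraries and lines are group means. Egr3 and Egr4 of the KO flow-through lie above, and Btg2 below, all 4 WT flow-through libraries, and no gene separates the genotypes in the CD45 fraction.

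In the flow-through, the question was how the immediate early genes differed between WT cortex and cortex of mice with endothelial deletion of EphA4. Egr4, Npas4 and Egr3 had higher means in the KO libraries, Btg2 a lower one, and the AP-1 genes, Egr1, Egr2 and Nr4a1 differed by at most 0.34 on the log2 scale. Over all genes tested in this comparison, 1.57% passed an edgeR adjusted p of 0.05 in either direction and 11.4% had groups that did not overlap. The former share includes 2 of the 10 genes (Egr3 and Egr4) and the latter 3 (Egr3, Egr4 and Btg2). The genes were chosen by this contrast, so these counts are no test and nothing is read from them.

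Among the EGR genes, Egr4 lay at 0.960, 1.31, 1.03 and 1.69 CPM in the WT flow-through libraries and at 4.65, 3.08 and 4.55 CPM in the KO libraries. The lowest KO library was above the highest WT library, and the fitted log2 fold change was 1.69 (SE 0.24), a 3.24-fold higher level. It ran from 1.59 to 1.88 when each library was left out in turn. Egr4 was chosen on this contrast, so that range is no measure of stability. Egr3, an activity-induced factor of neurons and lymphocytes, lay at 15.3, 13.4, 17.7 and 19.9 CPM in WT and 30.4, 28.6 and 22.1 CPM in KO libraries. These groups did not overlap either (log2 fold change 0.69, SE 0.15). Egr1, the most widely induced member of the family, lay at 435, 443, 482 and 509 CPM in WT and 406, 475 and 357 CPM in KO libraries (log2 fold change -0.19, SE 0.11), and these groups overlapped. Egr2, which in other settings drives Schwann cell myelination, was at 56.4 to 68.9 CPM in WT and 49.8 to 70.5 CPM in KO libraries (log2 fold change -0.05, SE 0.11). The 4 EGR genes thus split into a pair with higher KO levels and a pair whose levels overlapped between genotypes. The level of Egr3 per 1000 CPM of Egr1 was 30.3 to 39.1 in WT and 60.3 to 74.9 in KO libraries, and that of Egr4 was 2.13 to 3.33 and 6.49 to 12.7.

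Npas4 lay at 4.15, 4.89, 4.04 and 7.87 CPM in the WT and 12.9, 7.47 and 9.71 CPM in the KO flow-through libraries. WT replicate 4 was above KO replicate 2, so the groups overlapped, and the log2 fold change was 0.92 (SE 0.24). Btg2 lay at 86.6, 95.5, 88.9 and 94.1 CPM in WT and 61.5, 78.7 and 71.9 CPM in KO libraries. Every KO library was below every WT library, and the log2 fold change was -0.38 (SE 0.09). The ratio of Egr4 to Btg2, whose opposite change chose them, was 11.1 to 18 per 1000 in WT and 39.2 to 75.7 per 1000 in KO libraries. Nr4a1, whose protein is induced in leukocytes by antigen and inflammatory signals, lay at 93.9, 131, 93.7 and 116 CPM in WT and 75.4, 104 and 103 CPM in KO libraries (log2 fold change -0.22, SE 0.14), and the groups overlapped.

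The AP-1 genes overlapped between the genotypes in the flow-through. Fos lay at 618, 694, 645 and 732 CPM in WT and 472, 695 and 594 CPM in KO libraries (log2 fold change -0.21, SE 0.12). Fosb lay at 166, 196, 190 and 225 CPM in WT and 99.8, 200 and 162 CPM in KO libraries (log2 fold change -0.34, SE 0.21). KO replicate 1 was the lowest flow-through library for both, and it was the lowest KO library for 6 of the 10 genes and the highest for Egr3, Egr4 and Npas4. Junb, whose protein often opposes Jun within AP-1, was at 156 to 227 CPM in WT and 184 to 220 CPM in KO libraries (log2 fold change 0.07, SE 0.12). Exons of Junb overlap the gene Prdx2 on the opposite strand over 173 bases, 7.52% of its exon length, and no source used here gives the strand setting of the counting, so its level is uncertain. No other gene of the 10 overlapped an annotated exon of another gene.

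Markers of excitatory neurons moved with genotype in the same flow-through libraries. The summed level of 8 such genes was 194, 141, 119 and 201 CPM in WT and 552, 479 and 343 CPM in KO libraries, without overlap. Of these 8 genes, 5 had higher KO levels without overlap, and Slc17a7, the vesicular glutamate transporter of cortical projection neurons (77.3 CPM ± 8.28, n = 3, against 33.4 ± 10, n = 4, SD, edgeR adjusted p = 0.0343), and Nrgn, a calmodulin-binding postsynaptic protein (adjusted p = 0.0418), passed the test. Neither passed when flow-through KO replicate 1, KO replicate 2, KO replicate 3 or WT replicate 2 was left out, or after GC and length trends were removed. In a joint fit of both fractions, or with the left-out library entered as labelled, 0 of the 8 passed. Under upper-quartile scaling, and without WT replicate 4, 1 of the 8 passed, and in DESeq2 or with no filter on low counts 3 passed. No marker of the 8 was at 0 in a flow-through library. Of the 8, 7 had log2 fold changes above 0, with a median of 0.74, and Slc17a6 was at -0.21 (SE 0.28, edgeR adjusted p = 0.848). Of 6 general neuron markers, the synaptic vesicle genes Syn1 (log2 fold change 0.58, SE 0.11) and Syp (0.65, SE 0.11) were higher in KO, with edgeR adjusted p-values of 0.0134 and 0.0112. Of the 6, 5 had values above 0, with a median of 0.69, and Tubb3 was at -0.23 (SE 0.12, edgeR adjusted p = 0.542). Of 5 interneuron markers tested, Gad2, which makes GABA, was lower (-0.42, SE 0.10, edgeR adjusted p = 0.0494), and 3 had values above 0. Sst (1.34, SE 0.34, adjusted p = 0.0829) and Pvalb (0.34, SE 0.13, adjusted p = 0.308) were higher without overlap and did not pass. The median of the interneuron list was 0.03. Summed neuroblast markers were 661 to 816 CPM in WT and 447 to 619 CPM in KO libraries, without overlap. Gene by gene, Dcx and Cd24a were lower without overlap, and Dlx1, Dlx2 and Sox11 overlapped. Cd24a, at 195 to 345 CPM, was higher in the CD45 libraries (397 to 773 CPM). All 5 neuroblast genes had values below 0 and an unadjusted edgeR p under 0.05, beside 1814 of all 16546 genes tested at that p. Of the 5, 0 passed in edgeR, 1 in DESeq2 and 4 in edgeR with no filter on low counts. In bulk RNA, a different number of cells of a type and a different amount of RNA per cell cannot be told apart.

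Set against these markers, the level of Egr4 was 4.95, 9.28, 8.68 and 8.40 per 1000 CPM of excitatory neuron markers in the WT and 8.43, 6.43 and 13.3 in the KO flow-through libraries, and on this scale the groups overlapped. Npas4 was at 21.4 to 39.1 in WT and 15.6 to 28.3 in KO libraries, also with overlap. Egr3 was at 79.0 to 149 in WT and 55.1 to 64.4 in KO libraries, so that on this scale every KO library was below every WT library. Camk2a made up 333, 263 and 163 CPM of the sums in the KO libraries, and against the other 7 markers Egr3 was at 123 to 274 in WT and 123 to 139 in KO libraries, with overlap. Egr4, at 7.7 to 18.2 and 14.2 to 25.2, overlapped on this scale too. These ratios were chosen after the levels were seen, and the part of the neuron markers in the differences between genotypes was not tested.

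**Figure D2:**
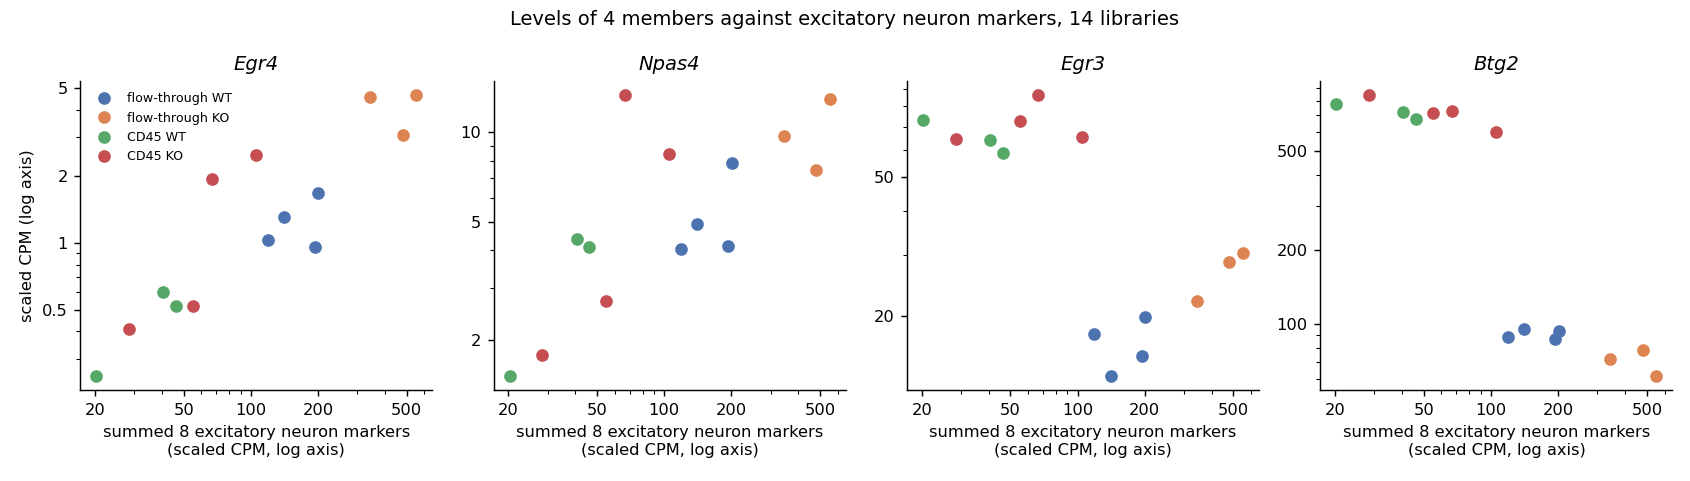
Level of Egr4, Npas4, Egr3 and Btg2 against the summed level of 8 excitatory neuron markers, both in scaled CPM on log axes, with 1 point per library. The 3 KO flow-through libraries have the highest marker sums (343 to 552 CPM) and the highest Egr4 levels, and CD45 KO replicates 2 and 4 have the highest marker sums of their fraction (105 and 66.7 CPM).

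Genes with the flow-through profile most like that of Egr4 were sought among 13259 genes, by the root mean squared difference of log2 levels centred over the 7 libraries. The 4 nearest were Kcnj4 (0.233), an inwardly rectifying potassium channel, Klhl40 (0.233), a kelch protein, Frmpd3 (0.251) and Panx2 (0.252), a pannexin expressed in brain. Genes found this way, for Egr4 or for Btg2, share that gene's genotype difference by construction. Their levels are therefore no separate result. Kcnj4 lay at 2.10 to 2.34 CPM in WT and 5.86 to 8.85 CPM in KO libraries. Panx2 lay at 3.30 to 4.59 CPM in WT and 8.76 to 11 CPM in KO libraries. Of the other 9 genes described here, Npas4 came closest to Egr4, at rank 25 (0.374), followed by Egr3 at rank 212 (0.570). The 4 genes nearest to Btg2 were Lpar2 (0.067), a lysophosphatidic acid receptor, Klf11 (0.070), a Krüppel-like factor, Rph3al (0.089) and Iqcg (0.090). Klf11 lay at 15.3 to 17.9 CPM in WT and 10.7 to 13.7 CPM in KO libraries. Fos came closest to Btg2 among the other 9, at rank 21 (0.104).

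Of the other genes of the rapid response, taken from 4 lists, 1 of 78 tested passed in the flow-through, beside 1.57% of all genes. It was Arc, an activity-induced regulator of synaptic receptor traffic. Arc lay at 62.7, 72.5, 78.0 and 71.4 CPM in WT and 112, 108 and 103 CPM in KO libraries. Every KO library was above every WT library, and the estimate was 0.58 on the log2 scale (SE 0.09, edgeR adjusted p = 0.00383). It passed in each fit that left out 1 library, and did not pass in a joint fit of both fractions (0.60, adjusted p = 0.662). Of 9 other AP-1 genes tested, 0 passed, and their median log2 fold change was 0.15 beside -0.007 for all genes. The smallest p in that list belonged to Fosl1, an inducible Fos relative, at 42.1 CPM ± 2.29 (SD, n = 4) in WT and 53.0 ± 6.44 (SD, n = 3) in KO (0.32 on the log2 scale, SE 0.10, edgeR adjusted p = 0.187). Jun came next (0.15, SE 0.09, adjusted p = 0.631). Exons of Fosl1 overlap the gene Ccdc85b on the opposite strand over 57.2% of their length, and those of Jun overlap Junos over 7.28%. With the strand setting of the counting unknown, both levels are uncertain.

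Of 23 upstream regulators, 0 passed in the flow-through, with a median log2 fold change of 0.06. The smallest p-values were those of Crtc1, a calcium-regulated CREB coactivator (0.33, SE 0.10, edgeR adjusted p = 0.159), and Mef2d, a MADS box factor (0.18, SE 0.09, adjusted p = 0.482). Exons of Mef2d overlap a gene on the opposite strand over 8.87% of their length. Of 16 feedback genes and partners, 0 passed, with a median of -0.02. Spry4, an inhibitor of receptor tyrosine kinase signalling (0.24, SE 0.10, edgeR adjusted p = 0.405), and Arnt2, the dimer partner of Npas4 (0.18, SE 0.09, adjusted p = 0.467), had the smallest p-values there. Over the 78 genes, 10 had an unadjusted edgeR p under 0.05, beside 1814 of all 16546 genes tested. DESeq2 passed 2, beside 420 of all 15719 genes it tested.

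In the CD45 libraries, which played no part in the choice of the genes, 0 of the 10 genes passed the edgeR test between genotypes, and 0 of 10 had groups that did not overlap. Over all 15660 genes tested the shares were 0% and 5.22%. At an unadjusted p under 0.05 there were 693 genes, among them Egr4 alone of the 10, and DESeq2 passed 9 genes, none of the 10. Egr4 lay at 0.251, 0.604 and 0.519 CPM in the WT and 0.408, 2.50, 0.521 and 1.95 CPM in the KO libraries. KO replicates 2 and 4 were above all WT libraries and the other KO libraries lay within the WT range. Its log2 fold change was 1.56 (SE 0.69, 95% interval 0.01 to 3.11, edgeR adjusted p = 0.974), on 5 to 45 counts per library. Npas4 lay at 1.51, 4.37 and 4.10 CPM in WT and 1.78, 8.40, 2.71 and 13.3 CPM in KO libraries, with the same replicates high (log2 fold change 0.99, 95% interval -0.67 to 2.65, edgeR adjusted p = 0.974). Without KO replicate 4 the Npas4 value was 0.38, and without WT replicate 1 it was 0.63. In KO replicates 2 and 4 the summed excitatory neuron markers were also the highest of the fraction, at 105 and 66.7 CPM. They were at 28.4 and 55.1 CPM in the other KO and 20.3, 40.5 and 46.2 CPM in the WT libraries. Of the 8 markers, 5 had enough counts to be tested between genotypes in this fraction, and 0 passed. Without KO replicate 2 the median log2 fold change of the markers tested fell from 0.88 to 0.39. Per 1000 CPM of excitatory neuron markers, Egr4 was at 12.4, 14.9 and 11.2 in WT and 14.4, 23.9, 9.45 and 29.3 in KO CD45 libraries. Npas4 was at 74.3, 108 and 88.9 in WT and 62.7, 80.2, 49.1 and 199 in KO CD45 libraries. KO replicate 2 also had the highest sums of endothelial (511 CPM), astrocyte (251 CPM) and general neuron markers (154 CPM) of the fraction. The part of any of these markers in the Egr4 and Npas4 values was not tested.

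Btg2 lay at 779, 723 and 673 CPM in the WT and 843, 600, 711 and 725 CPM in the KO CD45 libraries. The groups overlapped, and the 95% interval of the log2 fold change ran from -0.27 to 0.27 (edgeR adjusted p = 0.999). Its value in the flow-through was -0.38, and the difference between the fractions was not tested. Nr4a1 lay at 808, 823 and 677 CPM in WT and 798, 702, 797 and 737 CPM in KO CD45 libraries, with an interval of -0.25 to 0.22 (adjusted p = 0.993). Egr3 lay at 73.0, 64.0 and 58.7 CPM in WT and 64.6, 65.4, 72.6 and 86.2 CPM in KO CD45 libraries, with an interval of -0.12 to 0.43 (edgeR adjusted p = 0.974).

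Fos had the widest spread of the AP-1 genes in the CD45 fraction, at 826, 924 and 587 CPM in WT and 1597, 842, 878 and 611 CPM in KO libraries. Its log2 fold change was 0.34 (95% interval -0.37 to 1.05, edgeR adjusted p = 0.975). KO replicate 1 was the highest KO library for 7 of the 10 genes, and without it the Fos value fell to 0.00. Egr1 was also highest there, at 1074 CPM against 676 to 821 CPM in the other KO and 646 to 835 CPM in the WT libraries, with an interval of -0.19 to 0.53 (edgeR adjusted p = 0.975). Egr2 was at 0.27 (interval -0.02 to 0.55, adjusted p = 0.974). Fosb and Junb had values of -0.13 (interval -0.48 to 0.22, adjusted p = 0.978) and -0.15 (interval -0.41 to 0.12, adjusted p = 0.974). KO replicate 1 had 31337948 counts, the largest library, and 4053 CPM of summed neutrophil markers, the lowest of the fraction, and their part in its high levels was not tested.

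Of the 79 other genes of the response, 0 passed between genotypes in the CD45 fraction by edgeR or DESeq2. At an unadjusted edgeR p under 0.05 there were 10, beside 693 of all 15660 genes tested. All 10 other AP-1 genes had a log2 fold change below 0, with a median of -0.21 beside 0.02 for all genes, and 45.5% of all genes tested were below 0. It was 9 of 10 when library totals set the scale, when GC and length trends were removed, and without KO replicate 2 or 4. Without WT replicate 3 it was 8 of 10, with a median of -0.14. Jund, an AP-1 subunit present in resting cells, averaged 404 ± 65.9 CPM in the 3 WT and 291 ± 27.8 CPM in the 4 KO libraries (means with SD, -0.47, SE 0.12, edgeR adjusted p = 0.974). Atf3, a stress-induced partner, averaged 801 ± 87.6 CPM in WT and 655 ± 42.8 CPM in KO (-0.28, SE 0.11, adjusted p = 0.974). Both had lower KO levels without overlap. The other genes with the smallest p in their lists all had an edgeR adjusted p of 0.974. They were Klf2, a factor of quiescent lymphocytes and endothelium (-0.53, SE 0.15), Inhba, an activin subunit (0.96, SE 0.26), Mef2c (0.24, SE 0.10), the kinase Rps6ka2 (-0.95, SE 0.49), and the MAP kinase phosphatases Dusp5 (-0.31, SE 0.13) and Dusp4 (-0.59, SE 0.30). Inhba was at 134, 83.4 and 105 CPM in WT and at 161, 215, 300 and 154 CPM in KO, which did not overlap. Without WT replicate 3, where Rps6ka2 was at 80 CPM against 19.5 and 25.7 CPM in the other WT libraries, its value was -0.07. With 1 library left out, Klf2 ran from -0.67 to -0.34 and Dusp5 from -0.41 to -0.14. Exons of Jund and Dusp5 overlap genes on the opposite strand over 52.6% and 22.1% of their length. With the strand setting of the counting unknown, the levels of both are uncertain.

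**Figure D3:**
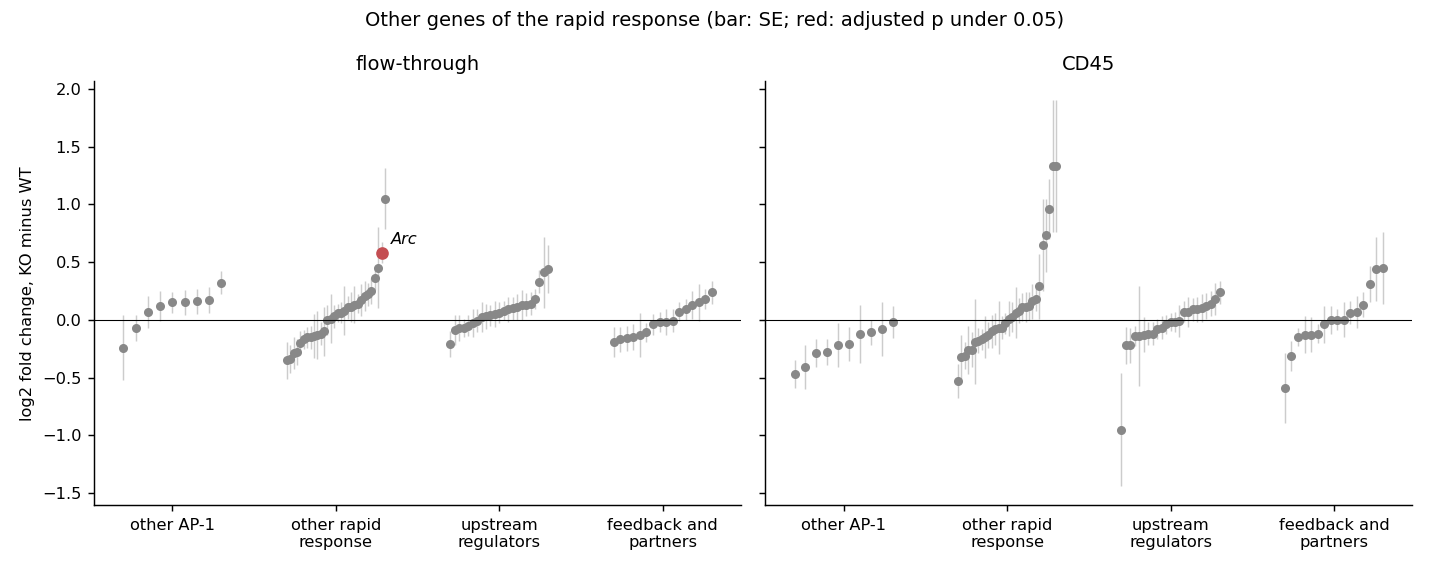
Log2 fold change between KO and WT of the other genes of the rapid response, by list, in the flow-through and in the CD45 fraction. Points are edgeR estimates, bars are their SE, and red marks an adjusted p under 0.05. Arc is the gene that passed, and the 10 other AP-1 genes of the CD45 panel all lie below 0.

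The fractions differed far more than the genotypes. In the WT libraries, 40.0% of all genes tested were higher and 41.7% lower in the CD45 fraction, so a call by itself sets no gene apart. Under upper-quartile scaling the higher calls fell from 49.0 to 38.2% of all calls, and under library totals to 30.3%, with the median of all genes moving to -0.36 and -0.64. Of the 10 genes, 6 were higher in the CD45 fraction (Junb, Btg2, Nr4a1, Egr3, Fosb and Egr1), 2 were lower (Egr2 and Egr4), and Fos and Npas4 did not pass. Their median log2 fold change was 1.07, beside -0.016 for all genes. In the KO libraries, with 38.1% of genes higher and 40.8% lower, 7 of the 10 were higher, Fos being added, and 1 was lower, Egr4. The library totals and the marker profiles of the fractions differ as well, and the flow-through and CD45 libraries may come from the same animals.

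Junb, Btg2 and Nr4a1 differed most. Junb had 1591, 1578 and 1691 CPM in the WT CD45 libraries and 156 to 227 CPM in the WT flow-through (log2 fold change 3.13, SE 0.14, edgeR adjusted p = 9.72e-10). Btg2 was higher by 3.05 (SE 0.10, edgeR adjusted p = 6.81e-11), an 8.26-fold difference, and Nr4a1 by 2.88 (SE 0.13, adjusted p = 1.69e-09). In the KO libraries the same 3 genes were higher by 2.83 (SE 0.14), 3.34 (SE 0.15) and 3.01 (SE 0.14). None of the 3 had a CD45 library within the flow-through range. Btg2 and Nr4a1 stayed in a narrow ratio in both fractions, at 701 to 949 CPM of Btg2 per 1000 of Nr4a1 in the flow-through and 855 to 1056 in the CD45 libraries.

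Egr3 was higher in the CD45 fraction by 2.03 in WT (SE 0.13, edgeR adjusted p = 3.50e-08) and by 1.41 in KO libraries (SE 0.15, adjusted p = 1.02e-05). Fosb was higher by 1.42 (SE 0.13) and 1.55 (SE 0.22), with edgeR adjusted p-values of 1.11e-06 and 0.000113. Egr1 was higher by 0.72 (SE 0.12, edgeR adjusted p = 0.000204) and 0.99 (SE 0.17, adjusted p = 0.000392), but by library totals alone the WT value was 0.09 (adjusted p = 0.484). Egr2 was lower in WT (-0.40, SE 0.11, edgeR adjusted p = 0.00492), and in KO libraries it was at -0.17 (95% interval -0.48 to 0.15, adjusted p = 0.295). The KO call for Egr2 was made under upper-quartile scaling (-0.42, adjusted p = 0.0156) and under library totals (-0.65, adjusted p = 0.0015).

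Egr4 was lower in the CD45 fraction, at -1.37 in WT (SE 0.38, edgeR adjusted p = 0.00586) and -1.60 in KO libraries (SE 0.54, adjusted p = 0.0196). Removing trends with GC content and length ended both calls, at -0.01 (edgeR adjusted p = 0.978) and -0.03 (adjusted p = 0.96). The exons of Egr4 have 68.2% GC, the highest of the 10 genes, against 49.7% for Btg2. The KO call was also lost without flow-through KO replicate 1 (-1.51, adjusted p = 0.0619) or replicate 3 (-1.52, adjusted p = 0.0596). Npas4 was at -0.59 in WT (95% interval -1.39 to 0.22, edgeR adjusted p = 0.155) and -0.62 in KO libraries (interval -1.89 to 0.66, adjusted p = 0.338), and the WT value passed under upper-quartile scaling (-0.93, adjusted p = 0.0337) and library totals (-1.22, adjusted p = 0.00975). Summed excitatory neuron markers were lower in the CD45 fraction too, at 20.3 to 46.2 CPM in WT against 119 to 201 CPM in the flow-through. The part of these markers in the lower Egr4 level was not tested.

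The fraction values of Fos changed with the scalings, and the WT value, unlike the KO value, was smaller than the shifts that these give all genes. In WT libraries Fos was at 0.26 (SE 0.14, edgeR adjusted p = 0.0945), turned to -0.08 under upper-quartile scaling and -0.35 under library totals, and passed without CD45 WT replicate 3 (0.40, adjusted p = 0.0054). In KO libraries it was higher by 0.74 (SE 0.29, edgeR adjusted p = 0.0387). That call was lost without flow-through KO replicate 1 (0.59, adjusted p = 0.147), replicate 2 (0.87, adjusted p = 0.0527) or replicate 3 (0.74, adjusted p = 0.0909), and without CD45 KO replicate 3 (0.80, adjusted p = 0.0525). Upper-quartile scaling (0.48, edgeR adjusted p = 0.148), library totals (0.26, adjusted p = 0.435) and no filter on low counts (0.72, adjusted p = 0.182) ended it too. The call was made in 7 of 14 alternatives.

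**Figure D4:**
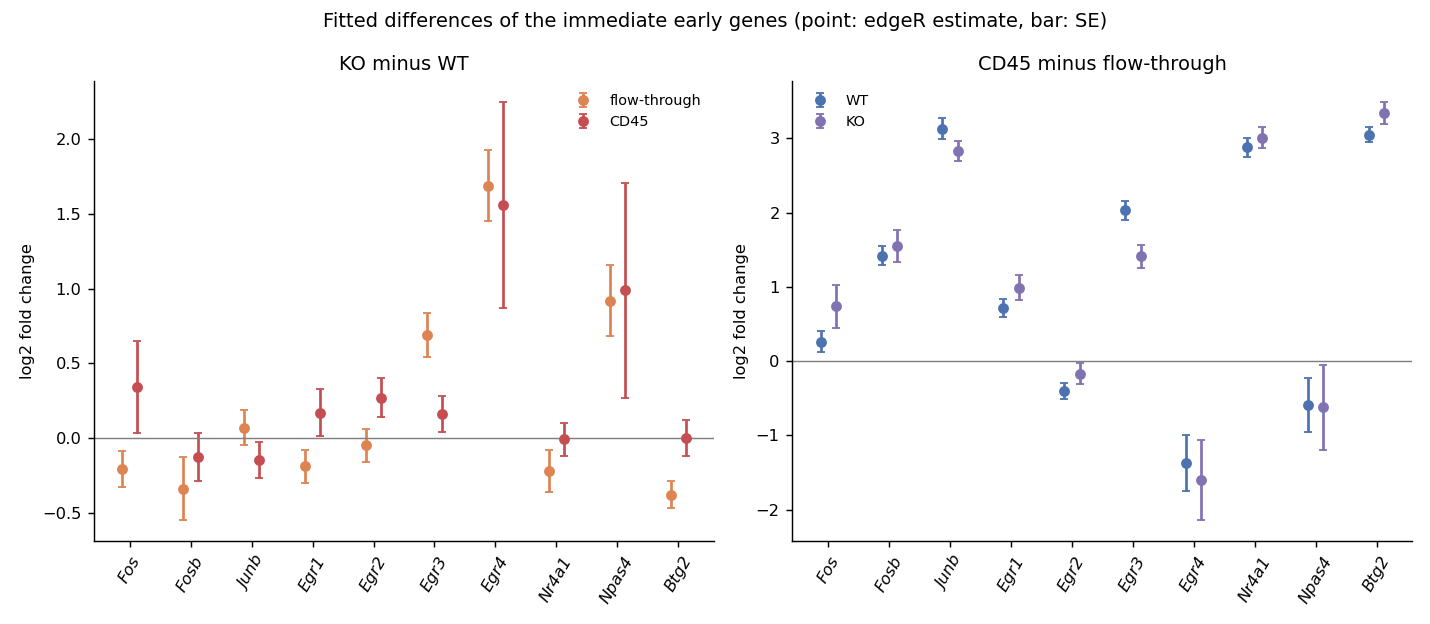
Log2 fold change of each gene between KO and WT (left, by fraction) and between the CD45 fraction and the flow-through (right, by genotype). Points are edgeR estimates and bars their SE. Egr4 has the largest genotype estimate in both fractions, with an SE of 0.24 in the flow-through and 0.69 in the CD45 fraction, and Junb, Btg2 and Nr4a1 lie near 3 in the comparison of fractions.

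Of the other genes of the response, 61 of 79 were higher and 12 lower in the CD45 fraction in WT libraries, beside 40.0% and 41.7% of all genes, with a median log2 fold change of 1.49. In KO libraries 57 were higher and 14 lower, beside 38.1% and 40.8%, with a median of 1.33. By library totals alone the WT counts were 50 and 19 with a median of 0.86, and the KO counts 50 and 17 with a median of 0.84. By list, 9 of 10 other AP-1 genes were higher in WT, as were 24 of 30 other rapid response genes, 19 of 23 upstream regulators and 9 of 16 feedback genes and partners. The last list, with 4 lower and a median of 0.68, had 8 higher and 7 lower with a median of 0.06 by library totals. Arc was among those lower in the CD45 fraction, at 5.18, 8.82 and 10.2 CPM in WT CD45 libraries against 62.7 to 78.0 CPM in the flow-through (-3.07, SE 0.21, edgeR adjusted p = 1.66e-07). In the KO libraries Arc was at -3.02 (SE 0.23, edgeR adjusted p = 1.20e-06).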

How the data were processed

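Whole-number read counts per gene, which the authors deposited in 1 table per fraction without normalization, were analysed for 15 libraries. The submitters' processing notes name Trim Galore, FastQC, STAR 2.7.9a, DESeq2 and the build GRCm38. The kit was stranded, per the labels' protocols. No source used here gives the counting tool, strand setting or annotation. Of 33223 genes, 33130 matched GENCODE M21, used for names, positions, GC content and exon lengths.

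Groups follow the labels, and replicate numbers are names in accession order that pair nothing. Since no label names an animal, a p-value reflects only the spread of these libraries, which may be technical. One library, given number 5 among flow-through WT, was left out because its column is in the CD45 table and its markers are those of CD45 cells. Chi-square per degree of freedom between libraries of a group was 10.2 to 55.2, and none was treated as a duplicate.

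Each comparison was fitted over all genes with edgeR 4.0.16 in R 4.3.3 (quasi-likelihood test, robust, TMM, filterByExpr with at least 10 counts), with Benjamini-Hochberg adjustment and a threshold of 0.05. Intervals are 95% intervals of that fit. The script was tested on simulated data. Levels are counts divided by library totals scaled with TMM over all 15 libraries. Alternatives were RLE and upper-quartile scaling, DESeq2, no filter, removal of GC and length trends, a joint fit, other placements of the doubtful library and leaving out each library. Scaling by totals alone, and ratios to the excitatory neuron markers without Camk2a, were added after the data were seen.

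The 10 genes, the gene lists and the tests were chosen with earlier results of these data known. Named genes are the 10, Epha4, in each pathway list those passing in a genotype comparison or else the 2 with the smallest p, and the 4 genes nearest to Egr4 and to Btg2 in profile.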

Additional observations from a re-analysis of the deposited data

Results flagged for a closer look

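One library labelled flow-through WT, replicate 5, entered none of the reported fits, and only alternatives use it. It was singled out because 7 of the 10 genes lay there above every other flow-through WT library. Fos was at 891 CPM, Fosb at 463, Junb at 1563, Egr1 at 781, Egr3 at 64.8, Nr4a1 at 733 and Btg2 at 666. Junb, Nr4a1 and Btg2 lay within 1286 to 1735, 677 to 823 and 600 to 843 CPM in the 7 CD45 libraries used. The other genes were Egr2 at 40.8, Egr4 at 1.29 and Npas4 at 5 CPM. No library was an outlier in its group for any of the 10 genes by Dixon's criterion in the groups of 4.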

How the results depend on the processing

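Of 825 log2 fold changes computed under an alternative, 775 were counted as unchanged. For most, this meant the same direction and the same side of the threshold. For the 10 genes between genotypes in the flow-through, it meant a shift smaller than the SD within groups. There a gene could cross the threshold or, if it had not passed, change sign, and still be counted. In the flow-through, 260 genes passed between genotypes, with 2 of the 10 genes and 1 other pathway gene. The 10 genes were chosen on this contrast, so their counts describe the settings and are no measure of stability. DESeq2 gave 420, 4 and 2, no filter gave 629, 4 and 4, and a joint fit of 14 libraries gave 30, 0 and 0. Removing GC and length trends gave 1 of the 10 genes and 2 pathway genes. With the doubtful library entered as labelled, the counts were 0, 0 and 0, and 389 genes had an unadjusted edgeR p under 0.05. Egr3 then turned to -0.02 and Mef2d to -0.40, and the WT fraction comparison gave 5645 genes, 1 of the 10 genes and 17 pathway genes. Leaving out 1 library gave 134 to 287 genes in the flow-through, 1 to 3 of the 10 genes and 1 to 2 pathway genes. The counts of all genes were lowest without KO replicate 1 (134), WT replicate 2 (144), WT replicate 3 (159) and KO replicate 2 (163), and 1 of the 10 genes passed without KO replicate 1 or WT replicate 1, 2 or 3.

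In the CD45 fraction DESeq2 passed 9 genes, and leaving out 1 library gave 0 to 1. Values next to 0 changed sign there. Nr4a1 ran from -0.10 to 0.04 with 1 library left out, and was 0.04 without GC and length trends, 0.01 by library totals and 0.00 with the doubtful library placed in the CD45 WT group. Btg2 ran from -0.09 to 0.07, and was 0.00 under upper-quartile scaling, 0.03 by library totals and 0.03 with the doubtful library in the CD45 WT group. With that library there, Egr4 in the WT fraction comparison was -0.92 (edgeR adjusted p = 0.059). The Fos value of the WT fraction comparison was -0.08 under upper-quartile scaling and -0.35 by library totals. Causes of these changes were not tested. No paired analysis was possible because the labels give no replicate numbers. Egr4, with as few as 5 counts in a CD45 library, is limited by depth.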
